A study of Mus musculus with 2 samples.

Results

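In the count tables of embryonic mouse forebrain, 10 of 1973 miRNA rows are described here that held nearly all of their counts on the strand opposite to the annotated gene. Mir142b was read in the same way and is not among the 10, and its values are given with the comparison of all rows. A row is the line of the table that belongs to 1 annotated miRNA gene. The rows are Gm24321, Gm25252, Gm25927, Mir299b, Gm24083, Gm25301, Gm25750, Mir497b, Gm25641 and Gm24111. They were chosen from their measured counts on both strands, so those counts are described below without a test. Each of the 10 rows overlaps a well-known miRNA gene on the other strand, and none of these partner genes has a row of its own. The partners are Mir409, Mir376a, Mirlet7e, Mir299a, Mir191, Mir378a, Mir380, Mir497, Mir9-1 and Mirlet7f-1.

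The tissue was forebrain of healthy B6NCrl embryos at embryonic day 11.5, with males and females pooled and no genetic change or treatment named. Replicate 1 pooled 109 embryos and replicate 2 pooled 88 embryos, and the labels give both pools the same donor entry. The series has 1 group and no control, so comparisons were made between rows and between the 2 libraries. RNA shorter than 30 bases was sequenced by microRNA-seq, and each value is a count of reads on 1 strand of a row.

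An miRNA gene is transcribed into an RNA that folds into a hairpin, from which enzymes cut a short duplex. Either arm of the duplex, named 5p or 3p, can enter an Argonaute protein. The seed, near the 5′ end, selects the messenger RNAs to be repressed. A transcript of the other strand of the same DNA would carry the complementary sequence, which is a different RNA with different seeds.

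The mature sequences of the partner genes are shown because they are the RNAs annotated on the strand that held the counts. They come from RefSeq on build GRCm38.p6, and the capitals mark the seed, bases 2 to 8. The table matched 9 of the 10 partners. The 4 partners of the miR-379 to miR-410 cluster on chromosome 12 have these arms.
mmu-miR-409-5p: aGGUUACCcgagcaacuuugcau
mmu-miR-409-3p: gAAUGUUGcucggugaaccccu
mmu-miR-376a-5p: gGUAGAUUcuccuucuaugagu
mmu-miR-376a-3p: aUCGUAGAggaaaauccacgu
mmu-miR-299a-5p: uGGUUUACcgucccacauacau
mmu-miR-299a-3p: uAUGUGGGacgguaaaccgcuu
mmu-miR-380-5p: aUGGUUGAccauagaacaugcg
mmu-miR-380-3p: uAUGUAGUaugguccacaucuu

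The 5p seeds of let-7e and miR-497 and the seeds of both arms of let-7f-1 and miR-9 are shared with genes at other places in the genome. No relative was found for the 3p seeds of let-7e and miR-497. The seed of miR-299a-3p is shared with Mir299b on the other strand. The 5p arms of let-7e and let-7f carry 1 and the same seed.
mmu-let-7e-5p: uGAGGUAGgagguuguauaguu
mmu-let-7e-3p: cUAUACGGccuccuagcuuucc
mmu-let-7f-5p: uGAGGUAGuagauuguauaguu
mmu-let-7f-1-3p: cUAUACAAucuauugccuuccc
mmu-miR-497a-5p: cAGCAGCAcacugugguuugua
mmu-miR-497a-3p: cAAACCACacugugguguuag
mmu-miR-9-5p: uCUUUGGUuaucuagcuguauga
mmu-miR-9-3p: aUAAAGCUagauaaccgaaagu

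The arms of Mir191 stand apart from these families.
mmu-miR-191-5p: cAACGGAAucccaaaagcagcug
mmu-miR-191-3p: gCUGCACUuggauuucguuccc

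Levels are given in CPM, the count of a row scaled to 1000000 sense counts of all miRNA rows, where sense means the row's own strand. The libraries held 1281201 sense counts in replicate 1 and 1297647 in replicate 2, from 3955893 and 3428269 reads. The opposite strand of all rows held 47940 counts in replicate 1 and 43222 in replicate 2, or 3.61% and 3.22% of the gene counts. A count of 3 equals 2.34 CPM in replicate 1 and 2.31 CPM in replicate 2, and this was taken as the upper limit where a count was 0. Of 10 neural marker miRNAs, 9 were at 2 CPM or more in both libraries, with a summed sense level of 58076 ± 3048 CPM (SD, n = 2, as for every ± below). The endothelial marker Mir126a stood at 32462 ± 3025 CPM, 4 epithelial markers at 7060.1 ± 336 and 3 erythroid markers at 489 ± 166 CPM. The leukocyte markers with own-strand rows summed to 760.02 ± 1.92 CPM and the liver marker Mir122 to 13.6 ± 10.5 CPM. The striated muscle markers summed to 179 ± 83.3 CPM, with Mir208b at 143.8 ± 67.1, Mir208a at 30.3 ± 13.4 and Mir206 at 5.05 ± 2.79 CPM. Mir1a-1 and Mir133a-1 were at 0 in both libraries. Reads that map to more than 1 place are not in these counts. Markers with several gene copies, such as the Mir124a genes and Mir9-3, can therefore be too low, and a 0 does not show absence. In bulk tissue, fewer cells of a type and less RNA per cell cannot be told apart.

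The 10 rows together held 46536 opposite-strand counts in replicate 1 and 41639 in replicate 2. These were 36322 and 32088 CPM, a mean of 34205 ± 2994 CPM. The 10 rows carried 97.1% of all opposite-strand counts in replicate 1 (95% Wilson interval 96.9 to 97.2%), with 96.3% for replicate 2 (96.2 to 96.5%). On their own strand the same 10 rows held 21 counts in replicate 1 and 32 in replicate 2. All other rows together held 1404 opposite-strand counts in replicate 1 and 1583 in replicate 2. The intervals and limits cover counting error only, since the reads carry no molecular identifiers.

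The levels of the 10 rows ran over more than 2 orders of magnitude. There were 7 rows above 1000 CPM and 2 below 200 CPM. The highest 3 rows, Gm24321, Gm25252 and Gm25927, held 64.6% of the 10 rows' counts in replicate 1 and 61.4% in replicate 2. Of the 10 rows, 8 held 0 own-strand counts in both libraries, and only Mir299b and Mir497b held any.

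**Figure D1:**
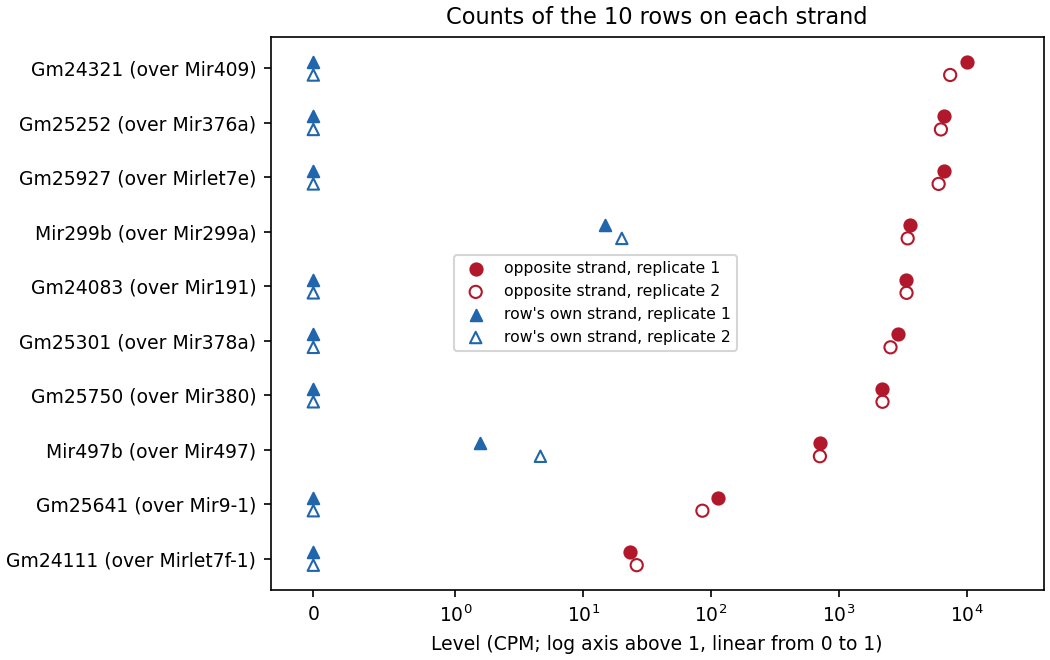
Levels of the 10 rows in CPM (log axis above 1, linear from 0 to 1), with the opposite strand as circles and the row's own strand as triangles, filled for replicate 1 and open for replicate 2. The opposite strand ran between 23.4 and 10087 CPM, and every row but Mir299b and Mir497b had its triangles at 0.

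The 4 rows on chromosome 12 lie on the minus strand of the miR-379 to miR-410 cluster, a run of miRNA hairpins in the imprinted Dlk1-Dio3 region. These hairpins are transcribed on the plus strand from the maternal chromosome, and many of them are active in the developing brain. Positions here and below are those of GENCODE M21 on GRCm38.

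Gm24321 (ENSMUSG00000093089.1, chr12:109743158-109743237, minus strand) spans 80 bases and encloses Mir409, which lies in an intron of the long noncoding RNA gene Mirg. Its opposite strand held 12924 counts in replicate 1 and 9622 in replicate 2, or 10087 and 7415 CPM, a mean of 8751 ± 1889.7 CPM. It was the highest of the 10 rows in both libraries, and its level would rank 34 among the sense levels of all rows. With 0 own-strand counts, the opposite strand was at least 4308-fold higher than the own strand in replicate 1 and at least 3207-fold higher in replicate 2, taking 3 counts per library as the limit. The share left for the own strand was at most 0.0232% and 0.0312%.

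Gm25252 (ENSMUSG00000093218.1, chr12:109723756-109723875, minus strand) encloses Mir376a, whose RNA is known for adenosine-to-inosine editing in brain. On its opposite strand there were 8557 and 8143 counts, or 6679 and 6275 CPM, a mean of 6477 ± 285 CPM. Both libraries were close, and its level would rank 44 among the sense levels. With 0 own-strand counts in both, the opposite strand was at least 2852-fold higher in replicate 1 and at least 2714-fold higher in replicate 2.

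Mir299b (ENSMUSG00000093291, chr12:109710645-109710693, minus strand) is the shortest of the 10 rows at 49 bases and the only one that does not enclose its partner. All 49 bases lie within the 63 bases of Mir299a. The opposite strand held 4639 and 4476 counts, or 3621 and 3449 CPM, a mean of 3535 ± 121 CPM. Its own strand held 19 and 26 counts, or 14.8 and 20.04 CPM. The opposite strand thus took 99.6% of the row's counts in replicate 1 (Wilson interval 99.4 to 99.7%), with 99.4% for replicate 2 (99.2 to 99.6%). Mir299b is annotated as an miRNA itself, and its own-strand level was above the 3-count limit in both libraries.

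Mir299a and Mir299b are shown as whole hairpins because a 21-base stretch, in capitals, stands in both of them 5′ to 3′. A read of this stretch alone would match the DNA at 2 places, 1 on each strand. Multimapping reads stand apart from the gene counts, so such reads would be missing from both strands of the row. In the other 8 partners with a hairpin sequence, the longest stretch found on both strands was 6 to 14 bases, shorter than any mature arm.
Mir299a hairpin: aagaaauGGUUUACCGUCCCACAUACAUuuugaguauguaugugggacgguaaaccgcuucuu
Mir299b hairpin: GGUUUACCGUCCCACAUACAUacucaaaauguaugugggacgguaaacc

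Gm25750 (ENSMUSG00000093224.1, chr12:109711779-109711890, minus strand) encloses Mir380, an miRNA known to repress p53 in neuroblastoma. It held 2760 and 2845 opposite-strand counts, or 2154 and 2192 CPM, a mean of 2173 ± 27.0 CPM. This was the lowest of the 4 rows of the cluster in both libraries. The own strand held 0 counts in both.

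Of 38 hairpins listed for the cluster, 33 had a row of their own, 4 were counted on the opposite strand of another row, and 1, Mir376b, had neither. Of the 33, 31 reached 2 CPM in both libraries, and Mir654 and Mir453 held 0 counts. The 4 opposite-strand rows summed to 22541 (replicate 1) and 19332 (replicate 2) CPM, a mean of 20937 ± 2269 CPM. The 33 hairpins with rows of their own summed to 75347 and 73012 CPM, a mean of 74179 ± 1651 CPM. The 4 rows therefore held 23.0% and 20.9% of the cluster's counts over both kinds. By mean level, Mir487b (12059 ± 47.5 CPM) and Mir411 (11084 ± 1034 CPM) came first, then Mir541 (9268 ± 694 CPM), with Mir409 at position 4, Mir376a at 7, Mir299a at 10 and Mir380 at 14. Mir409 and Mir541 changed places between the libraries, and their levels did not differ beyond their spread.

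**Figure D2:**
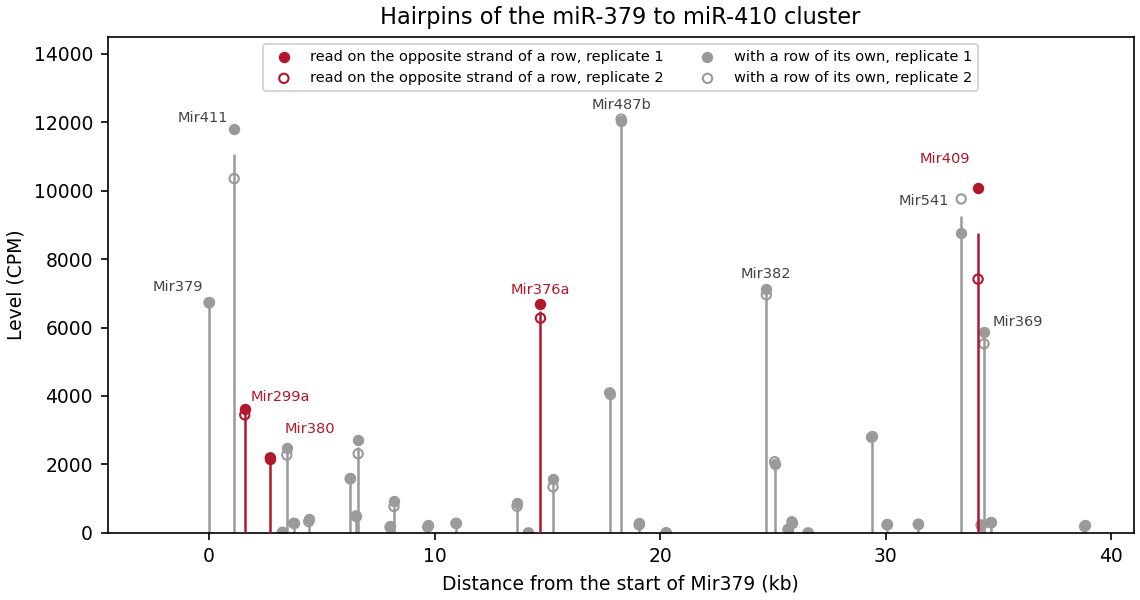
Levels (CPM) of the miR-379 to miR-410 hairpins by distance from the start of Mir379, with red for hairpins read on the opposite strand of a row and grey for hairpins with rows of their own, filled for replicate 1 and open for replicate 2, and lines up to the mean. The 4 red hairpins stood between 2173 and 8751 CPM in the mean, among grey ones that reached 12059 CPM.

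Gm25927 and Gm24111 lie over let-7 genes, which promote differentiation and whose maturation LIN28 blocks early in development. Gm25927 (ENSMUSG00000092799.1, chr17:17830343-17830459, minus strand) encloses Mirlet7e, in an intron of the protein-coding gene Spaca6. Its opposite strand held 8572 and 7816 counts, or 6691 and 6023 CPM, a mean of 6357 ± 472 CPM. Gm25252 and Gm25927 were close enough that they changed places between the libraries.

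Gm24111 (ENSMUSG00000093232.1, chr13:48537825-48537921, plus strand) encloses Mirlet7f-1, in an exon of the noncoding RNA gene 6720427I07Rik. It held only 30 and 34 opposite-strand counts, or 23.4 and 26.2 CPM, and was the lowest of the 10 rows in both libraries. The own strand held 0 counts, but at this depth the opposite strand was only shown to be at least 10-fold higher in replicate 1 and at least 11.3-fold higher in replicate 2. The Wilson intervals of its opposite-strand share reached down to 88.6% and 89.8%. The mature let-7f-5p is also encoded by Mirlet7f-2, on another chromosome, so its reads map to more than 1 place. Multimapping reads, 41.7% of mapped reads in replicate 1 and 39.1% in replicate 2, are not in the gene counts, and the level of Mirlet7f-1 can be too low by an unknown amount. No mature arm of let-7e was found in another hairpin.

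Placed among the listed hairpins with the let-7 seed, let-7e stood at position 3 of 13 in both libraries, with 17.6% ± 1.45 of their counts. Of its 12 listed relatives, 10 held any counts. Mirlet7f-1 and Mirlet7f-2 encode the same 5p arm, as do Mirlet7c-1 and Mirlet7c-2, so relatives can have lost multimapping reads that let-7e keeps. This position and share hold for uniquely mapped reads only. Mirlet7g (18770 ± 1131 CPM) was far above it, and Mirlet7i (6912 ± 328 CPM) stood next above it in both libraries. Mirlet7i held 7143 CPM against 6691 for let-7e in replicate 1, and 6680 against 6023 in replicate 2. In the other 2 hairpins of its own cluster, Mir99b held 33339 ± 3117 CPM and Mir125a held 6417 ± 407 CPM. Mirlet7e therefore held 13.8% ± 0.172 of the counts of Mir99b, Mirlet7e and Mir125a together.

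Mir497b (ENSMUSG00000070109.2, chr11:70234692-70234816, minus strand) encloses Mir497, whose 5p arm has the seed of the miR-15 and miR-16 family, known to repress cell cycle regulators. On the opposite strand, 907 and 921 counts were found, or 708 and 709.7 CPM, a mean of 709 ± 1.28 CPM. Its own strand held 2 and 6 counts, which lie around the 3-count limit. The opposite strand took 99.8% of the row's counts in replicate 1 (Wilson interval 99.2 to 99.9%), with 99.4% for replicate 2 (98.6 to 99.7%). Besides Mir497, 10 listed hairpins carry this seed, and 6 of them held any counts. Mir497 was at position 6 of all 11 in both libraries, and of those 6 relatives only Mir195a stood lower. Mir497 held 1.91% ± 0.0677 of the counts of the 11, far below Mir322 (17764 ± 328 CPM) and Mir15a (9246 ± 184 CPM). Mir16-1 and Mir16-2 encode the same 5p arm, so multimapping reads are missing from this share too. Mir195a, the other hairpin of its cluster, held 477 ± 5.94 CPM.

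Gm25641 (ENSMUSG00000092876.1, chr3:88215589-88215696, minus strand) encloses Mir9-1, in an intron of the noncoding RNA gene Gm3764. miR-9 is abundant in neural progenitors and promotes their differentiation. The opposite strand held 144 and 111 counts, or 112 and 85.5 CPM, a mean of 98.97 ± 19.0 CPM. The own strand held 0 counts in both, and the Wilson interval of the opposite-strand share reached down to 97.4% and 96.7%. Both arms of miR-9 are also encoded by Mir9-2 and Mir9-3, so this level can be too low for the same reason as that of Mirlet7f-1. Among the 3 genes, Mir9-3 held 479 ± 62.4 CPM and Mir9-2 8.16 ± 3.91 CPM, and Mir9-1 held 16.8% ± 0.789 of the counts. This share covers only reads that mapped to 1 place, which a read of a whole shared arm does not, so it is not the share of mature miR-9 made from each gene.

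Gm24083 (ENSMUSG00000092915.1, chr9:108568295-108568414, minus strand) encloses Mir191, in an exon of the noncoding RNA gene 4833445I07Rik. Opposite-strand counts were 4311 and 4385, or 3365 and 3379 CPM, a mean of 3372 ± 10.2 CPM. The libraries were nearly level. Mir425, the hairpin beside it, held 2149 and 1918 CPM, so Mir191 took 62.4% ± 1.95 of the counts of the pair.

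Gm25301 (ENSMUSG00000093026.1, chr18:61397813-61397925, plus strand) encloses Mir378a, which lies on the minus strand in an intron of Ppargc1b, a coactivator of genes of mitochondrial metabolism. The opposite strand held 3692 and 3286 counts, or 2882 and 2532 CPM, a mean of 2707 ± 247 CPM. The own strand held 0 counts in both. No other miRNA row lay within 10 kb on the strand of Mir378a.

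The rule that fits these rows was then applied to every row. Of 409 rows with 10 counts or more over both strands and libraries, 11 had at least 90% of them on the opposite strand, a share of 2.69%. These were the 10 rows and Mir142b, which overlaps Mir142, a marker of blood cells. Mir142b held 1255 and 1442 opposite-strand counts, or 980 and 1111 CPM, with 0 on its own strand. The next row by opposite-strand share was Mir124a-3, at 77.8% in replicate 1 and 61.5% in replicate 2, over no more than 18 counts in either library.

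All 11 rows had an annotated partner. Partners could be searched only for rows found in GENCODE M21, which leaves out 79 rows of the table. Of the rows searched, 32 overlapped an annotated miRNA gene on the other strand, and none of those partner genes had a row. With 10 counts or more there were 28 such rows, of which 11 were read mostly on the opposite strand and 17 mostly on their own. In those 17, the opposite strand took a median of 0.0131% and at most 5.50% of the counts, with 8 rows at 0. Among the 381 rows with 10 counts or more for which no partner was found, 358 held 0 opposite-strand counts and 0 reached 90%. Of the 11 rows, 10 enclosed their partner and 8 carried a Gm name. Of the 17 rows read mostly on their own strand, 16 enclosed their partner and 0 carried a Gm name.

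**Figure D3:**
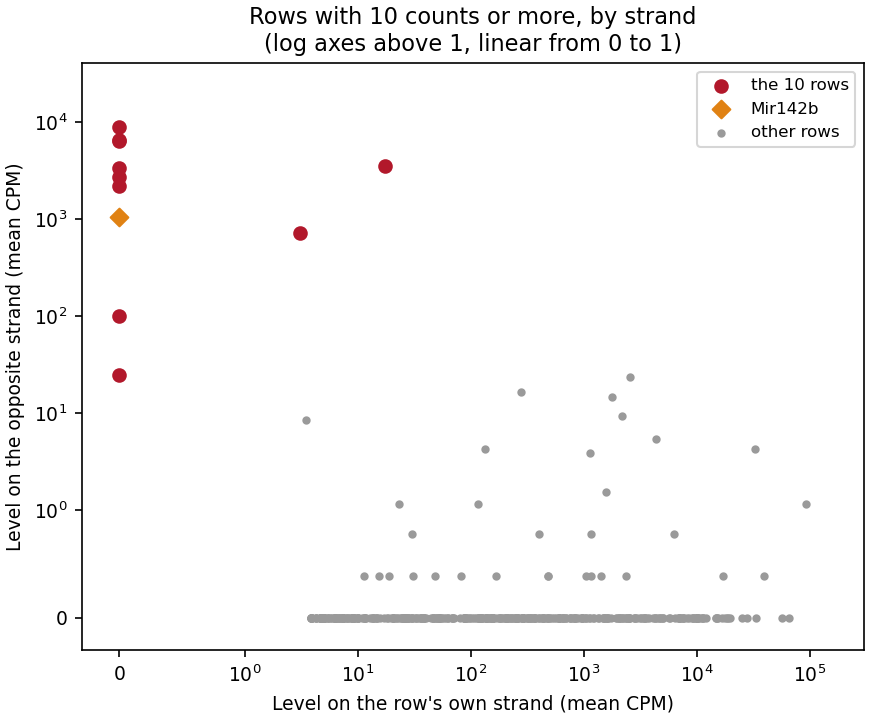
Mean level on the opposite strand against mean level on the row's own strand (CPM, log axes above 1) for the 409 rows with 10 counts or more. The 10 rows in red and Mir142b in orange lie along the left side with own-strand means of 17.4 CPM or less, while most other rows lie at an opposite-strand level of 0.

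Each row was next set against the hairpins beside it, on the strand that was read and within 10 kb. The neighbours numbered 41 over 9 rows, and 1 CPM was added before taking log2. A mature miRNA is read whole, so CPM was not divided by the length of the hairpin, but libraries capture different miRNAs unequally. The 10 rows were chosen for the counts they held, and the neighbours were not. The neighbours include Mir453 and Mir654 at 0 CPM, so a place above a neighbour median can partly follow from the choice of rows. Gm24321 stood above the median of its 13 neighbours by 4.87 ± 0.27 on the log2 scale, Gm25252 above that of 16 by 3.29 ± 0.024, Mir299b above that of 13 by 2.82 ± 0.030 and Gm25750 above that of 13 by 2.12 ± 0.037. With neighbours within 2 kb, Gm24321 stood only 1.53 above their median, and Mir299b stood at -0.37, below it. With neighbours within 50 kb, Gm25252 stood 4.35 above, Mir299b 3.47 and Gm25750 2.77. Mir299b and Gm25750 had the same 13 neighbours within 10 kb, so their ratios share a baseline. Mir299a and Mir380 were not among these neighbours, since they have no rows of their own. When hairpins read on an opposite-strand row were added, a setting chosen after seeing the data, Mir299b stood 2.39 above and Gm25750 1.69. None of the 13 neighbours of Gm24321 was higher in replicate 1, and 1, Mir541, was higher in replicate 2.

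Outside chromosome 12, the distances from the neighbours were smaller or went the other way. Gm24083 was 0.73 ± 0.12 above Mir425, and Mir497b was 0.57 ± 0.021 above Mir195a, both on the log2 scale. Gm25641 was 0.24 above Mir3093 in replicate 1 and -0.050 from it in replicate 2, so its order against Mir3093 (91.9 ± 4.67 CPM) was not settled. Gm25927 stood at -1.64 ± 0.021 against the median of Mir99b and Mir125a. Gm24111 stood at -5.63 ± 0.13 against the median of Mirlet7d (2504 ± 36.8 CPM) and Mirlet7a-1 (51.2 ± 1.56 CPM), 2 unlike levels. The levels of Gm24111 and Gm25641 can be too low because multimapping reads are missing. Whether their neighbours lost such reads too was not tested, so these ratios can be off in either direction. Across the 9 rows the median was 0.65 in replicate 1 and 0.82 in replicate 2. The smallest p that an exact sign test can give with 2 libraries is 0.5, so no test was made. Set against the sum of the neighbours in place of their median, the median was -2.30, below 0.

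**Figure D4:**
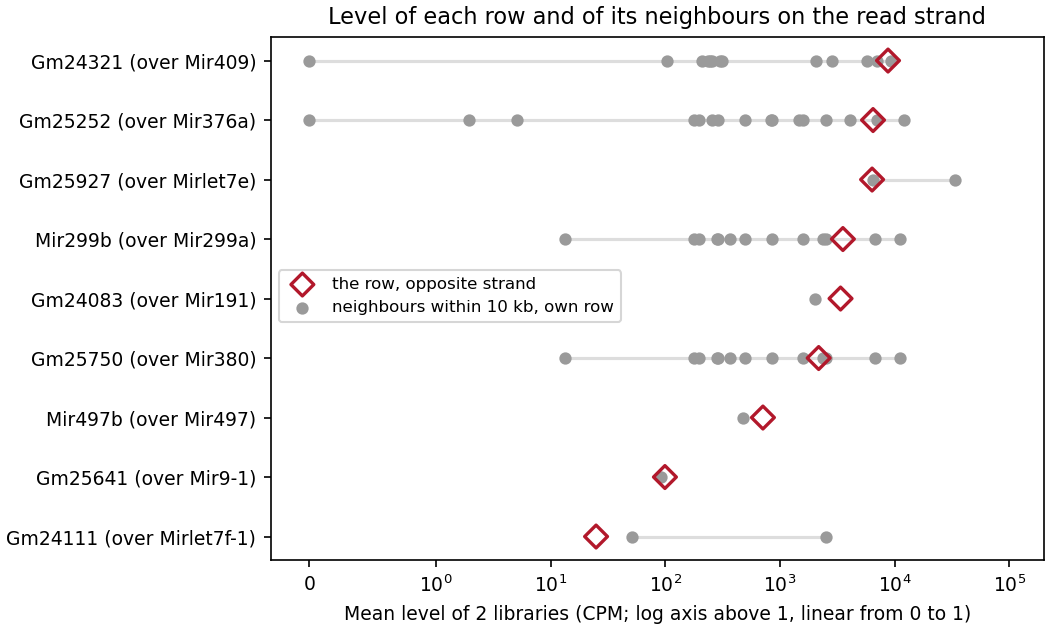
Mean level (CPM, log axis above 1) of each row's opposite strand as a red diamond and of its neighbours within 10 kb as grey points. The diamonds of the chromosome 12 rows stand toward the right end of their neighbours, and that of Gm24111 at 24.8 CPM stands left of both of its neighbours. Multimapping reads are in none of these levels.

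Differences between the 2 libraries were tested over all 418 strand columns with 10 counts or more, with a two-sided exact binomial test and Benjamini-Hochberg adjustment. None of the 10 rows differed 2-fold or more, against 2.63% of all columns. Without a minimum size, 4 of the 10 rows were higher in replicate 1, against 20.6% of all columns, and 0 were lower in replicate 1, against 7.66%. In both directions 28.2% of all columns were called. Calls by this test depend on depth. The 4 rows higher in replicate 1 held 6978 counts or more over both libraries, while 163 of the 418 columns held 1000 or more. The shares of all columns are therefore not from columns of like depth. Under TMM scaling 3 of the 10 rows were higher and 2, Gm24083 and Gm25750, lower in replicate 1, and under DESeq2 size factors 3 were higher and 0 lower. Gm25252 was not called under either scaling. The test covers counting error only, and with 2 pools of embryos it compares these libraries, not conditions.

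The 4 rows were Gm24321, Gm25252, Gm25927 and Gm25301. Gm24321, at 10087 CPM in replicate 1 against 7415 CPM in replicate 2, stood 0.44 higher on the log2 scale (exact binomial adjusted p = 7.4e-115, 95% interval 0.41 to 0.48). Of the 163 columns with 1000 counts or more, 1 had a larger ratio in either direction, and the median size over these columns was 0.11 on the log2 scale. The summed neighbours of Gm24321 had a difference of -0.020 on that scale between the same libraries. By the same exact binomial test, Gm25301 was higher by 0.19 (0.12 to 0.25, adjusted p = 5.8e-07), Gm25927 by 0.15 (0.11 to 0.20, adjusted p = 1.8e-10) and Gm25252 by 0.090 (0.046 to 0.13, adjusted p = 0.00031), all on the log2 scale.

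The other 6 rows did not pass the test. Gm25641 had the largest ratio among them, 0.39, with an interval from 0.027 to 0.76 and an exact binomial adjusted p of 0.097. Mir299b had a log2 ratio of 0.070, Gm25750 of -0.025, Gm24083 of -0.0062, Mir497b of -0.0037 and Gm24111 of -0.16. With the edgeR exact test, at an estimated coefficient of variation of 11.3%, 0 of the 10 rows were called, against 1.91% of all columns. This spread was estimated from the same 2 libraries, so their differences were counted as spread. The test therefore cannot show that the rows agree between the libraries. At an unadjusted p under 0.05 that test gave 0 of the 10 rows, against 4.78% of all columns. Gm24321 had an unadjusted edgeR exact p of 0.055.

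**Figure D5:**
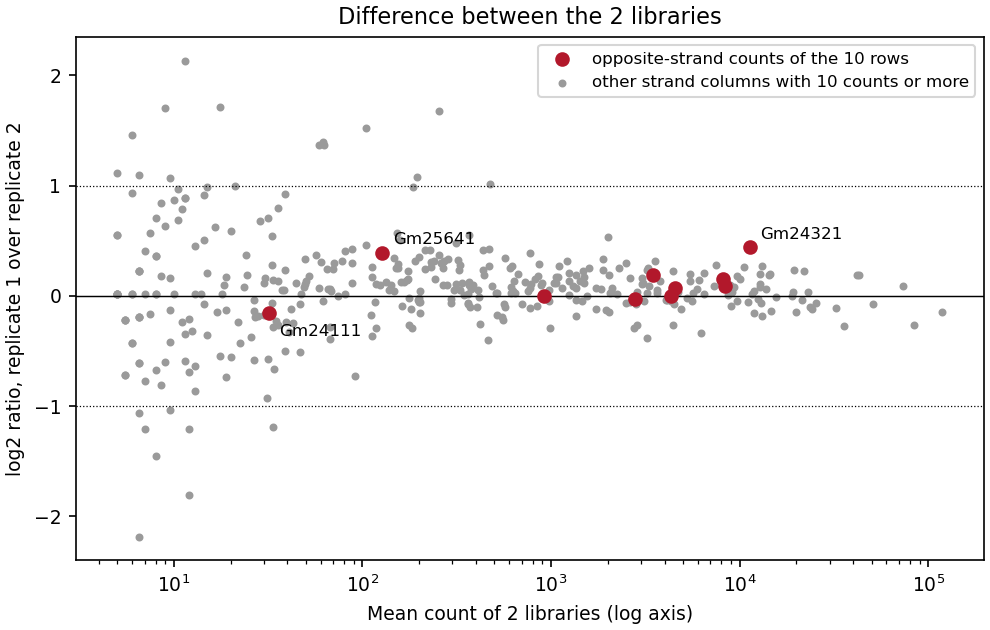
Log2 ratio of replicate 1 over replicate 2 against the mean count of the 2 libraries (log axis) for the 418 strand columns, with the 10 rows in red and dotted lines at 2-fold. All 10 red points lie between the dotted lines, and Gm24321 is the highest of them at 0.44.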

How the data were processed

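The 2 deposited tables hold raw counts, whole numbers per miRNA gene row in 3 columns for both strands, the row's own strand and the opposite strand. Per the text files deposited with the counts, the reads were aligned to mm10 and counted on GENCODE M4. Neither the aligner nor the counting program is stated (not given in the sources used here). Rows that name no gene (unmapped, multimapping, no feature, ambiguous) held 66.4% of the reads in replicate 1 and 60.9% in replicate 2 and stayed out of totals and tests. The libraries come from the labels' biological replicate numbers 1 and 2.

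The 10 rows, the lists and the tests were chosen with earlier results of these data known. Gene names and positions come from GENCODE M21 on GRCm38, in which 1894 of 1973 rows were found. Annotation M4 itself was not used here. Partners were found by overlap on the other strand. Named genes are the 10 rows, their partners, up to 4 neighbours or cluster members by mean CPM, relatives by seed, and rows called between the libraries. Rows read mostly on the opposite strand and the markers are also named, and Mir376b, Mir654, Mir453, Mir124a-3 and the let-7 and miR-16 genes that share an arm were named after their values were seen.

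CPM is the count over the sense total of the library. Shares carry 95% Wilson intervals, and log2 ratios between libraries have 0.5 counts added, with exact binomial intervals. The threshold was an adjusted p of 0.05. edgeR 4.0.16 and DESeq2 1.42.0 in R 4.3.3 gave alternative scalings and the edgeR exact test. The binomial test was tested on simulated data with counting error only, as the test assumes, which leaves out spread between pools. All else was computed with scipy 1.17.1, numpy 2.4.6 and pandas 2.3.3 under Python 3.11.15. No quasi-likelihood test was possible with 1 group and no contrast.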

Additional observations from a re-analysis of the deposited data

Results flagged for a closer look

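Outside the 10 rows, 10 rows held more than 3 opposite-strand counts in each library, which is above the limit that a count of 0 allows. Mir142b, over Mir142, held 2697 over both libraries, with 0 on its own strand. Mir203 held 61, 32 in replicate 1 and 29 in replicate 2, beside 3368 and 3214 on its own strand. Mir3074-1, over Mir24-1, held 42. Mir374b, over Mir374c, held 38, and Mir337, over Mir3544, held 24. Mir124a-3 held 22, 14 in replicate 1 and 8 in replicate 2, beside 4 and 5 on its own strand. Mir708 held 14, Mir126a and Mirlet7b held 11 each, and Mir219a-1 held 10. Mir203, Mir124a-3, Mir708 and Mirlet7b overlap no annotated miRNA gene on the other strand.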

How the results depend on the processing

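Depth limits Gm24111 and Gm25641 most, with at most 34 and 144 opposite-strand counts in a library. No paired analysis was possible because the series has 1 group. Leaving out 1 library gave a sum of the 10 rows between 32088 and 36322 CPM, a share of all opposite-strand counts between 96.3% and 97.1%, and a median log2 ratio to the neighbours between 0.65 and 0.82. With Gm24321 taken from the 10 rows but its counts kept in the total, the others held 72.1% of all opposite-strand counts. With a minimum of 1 count, 22 rows were read mostly on the opposite strand, and with 50 counts 11. Neighbours within 2 kb gave a median log2 ratio of 0.57 and took Gm24321 to 1.53 and Mir299b to -0.37. Against the sum of the neighbours, the median was -2.30, Gm24321 -1.72, Gm25252 -2.30, Mir299b -2.93 and Gm25750 -3.63, since a sum is never below a median. Gm25641 was at -0.050 without replicate 1 and 0.24 without replicate 2. Under the edgeR exact test, 0 of the 10 rows were called between the libraries at any size. This held at the spread estimated from the same 2 libraries and at a set coefficient of variation of 0.2. TMM turned the log2 ratio between libraries of Mir299b to -0.0016. It took Gm25252 below the threshold (0.018), and Gm24083 (-0.078) and Gm25750 (-0.097) past it, lower in replicate 1. DESeq2 size factors took Gm25252 below it (0.040). Against the neighbours, chosen after seeing the data, Gm25927 was at -0.029 and Mir299b at -0.062. Ranked among the larger strand of every row, Gm24321 kept rank 34 and the other rows stood 1 to 10 positions lower. For the changes between tests and scalings, the cause was not tested.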
